A study of Drosophila melanogaster with 2 samples.

Results

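The fly genome carries 5 genes of the GATA family of zinc finger transcription factors, pnr, srp, grn, GATAe and GATAd, and all 5 had a reproducible Med summit in the gene or within 10 kb of it, as did 71.0% of all protein-coding genes. A summit lay inside the gene at grn and GATAd, 2 of 5 genes against 14.8% of all protein-coding genes. At srp, pnr and GATAe every reproducible summit lay outside the gene. Med encodes Medea, the common-mediator Smad of Drosophila melanogaster, which enters the nucleus with the receptor-activated Smads once Dpp (BMP) or activin receptors have signalled. The genes were taken by family membership and not by a peak value, 5 of 13945 annotated protein-coding genes. GATA factors bind DNA with zinc fingers and set the fates of dorsal ectoderm, heart, blood, fat body and gut. Pannier, the product of pnr, patterns the dorsal ectoderm and the heart and is induced by Dpp in the embryo. Serpent, from srp, is needed for blood cells, fat body and endoderm, and GATAe maintains the endoderm after it. Grain, from grn, shapes the posterior spiracles and guides motor axons.

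Chromatin was sonicated to fragments of 200 to 800 bp from whole embryos, 0 to 24 h old and of both sexes, of a transgenic line that carries Med fused at its C terminus to eGFP, and was precipitated with an antibody to GFP. All embryos formed 1 group, with biological replicates 2 and 3 and no other condition, so the values describe occupancy and how far the replicates agree. Whole embryos mix all tissues and stages, and the share of cells that carry a peak cannot be told from its signal. The deposited dm6 lists were a relaxed list for each replicate, a relaxed list called on both together (here the pooled list), each of 30000 peaks, and 5867 peaks selected by irreproducible discovery rate (here the reproducible list). Signal is the authors' value per peak on a scale not given in the sources used here. Its median was 75.2 in the pooled list, 32.0 in replicate 2 and 52.6 in replicate 3, so equal signals do not stand for equal ranks in the 2 replicate lists.

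The 5 windows held 8 reproducible summits, 54 pooled summits, 44 summits of replicate 2 and 59 of replicate 3 in 155174 bp. srp, GATAe and pnr lie next to each other on 3R, all on the plus strand, with gaps of 5019 bp and 6945 bp, so their windows overlap and share peaks. The strongest site of each window is printed here with 100 bases on either side of the summit, plus strand, from the Release 6 assembly, together with the promoter summits of grn and pnr and the other summit between srp and GATAe, because the results turn on them. The pnr and second intergenic sites were added after their values were seen. Capitals mark a GATA motif (TGATAA or AGATAA), a Smad box (GTCTG) or a GC-rich Mad motif (GCCGNC), each searched on both strands.
srp promoter, chr3R:15985780-15985980: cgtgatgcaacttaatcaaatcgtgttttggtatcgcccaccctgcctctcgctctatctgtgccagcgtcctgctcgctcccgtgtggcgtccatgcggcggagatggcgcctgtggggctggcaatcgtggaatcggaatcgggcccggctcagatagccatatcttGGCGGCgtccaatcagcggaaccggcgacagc
srp to GATAe, in an exon of CR42839, chr3R:16005243-16005443: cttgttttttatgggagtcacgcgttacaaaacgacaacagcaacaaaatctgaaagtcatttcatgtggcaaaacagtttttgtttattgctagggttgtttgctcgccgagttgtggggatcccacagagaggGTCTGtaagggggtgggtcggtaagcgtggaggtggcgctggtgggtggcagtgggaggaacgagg
srp to GATAe, in an intron of CR42839, chr3R:16005996-16006196: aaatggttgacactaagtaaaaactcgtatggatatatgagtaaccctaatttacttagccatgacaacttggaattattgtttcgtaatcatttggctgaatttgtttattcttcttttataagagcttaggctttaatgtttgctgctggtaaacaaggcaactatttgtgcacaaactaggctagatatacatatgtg
pnr promoter, chr3R:16026020-16026220: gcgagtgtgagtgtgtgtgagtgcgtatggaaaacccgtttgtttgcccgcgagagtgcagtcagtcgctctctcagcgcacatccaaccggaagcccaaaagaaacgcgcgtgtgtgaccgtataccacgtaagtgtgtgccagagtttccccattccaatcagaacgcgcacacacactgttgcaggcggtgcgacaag
IKKbeta and CG5013 promoters beyond pnr, chr3R:16049477-16049677: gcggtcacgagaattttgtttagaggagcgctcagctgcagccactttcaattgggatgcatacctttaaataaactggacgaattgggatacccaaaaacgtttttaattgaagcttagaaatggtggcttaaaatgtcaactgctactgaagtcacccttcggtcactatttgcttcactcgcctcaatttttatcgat
grn intron, chr3R:8171530-8171730: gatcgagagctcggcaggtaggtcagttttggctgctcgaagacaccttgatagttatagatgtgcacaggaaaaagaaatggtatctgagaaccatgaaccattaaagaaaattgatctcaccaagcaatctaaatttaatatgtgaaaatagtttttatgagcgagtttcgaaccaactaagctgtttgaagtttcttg
grn promoter, chr3R:8181415-8181615: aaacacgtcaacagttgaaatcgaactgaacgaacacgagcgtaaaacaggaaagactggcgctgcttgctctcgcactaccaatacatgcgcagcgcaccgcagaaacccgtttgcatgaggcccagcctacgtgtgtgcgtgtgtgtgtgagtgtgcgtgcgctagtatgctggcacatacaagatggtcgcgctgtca
GATAd intron, chr2L:10334970-10335170: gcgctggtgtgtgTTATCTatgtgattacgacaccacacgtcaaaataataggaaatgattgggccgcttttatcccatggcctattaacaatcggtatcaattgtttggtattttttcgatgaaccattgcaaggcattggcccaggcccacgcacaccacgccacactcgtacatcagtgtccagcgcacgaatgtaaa

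At srp (FBgn0003507, 3R from 15986152 to 16004085) the strongest peak sat just upstream of the first of 4 start sites. It ran from 15985692 to 15986067, with its summit 272 bp before the start site, and lay outside the transcribed span. Its signal was 34.0 in replicate 2, 239.6 in replicate 3 and 283.2 in the reproducible list, where it ranked 2911 of 5867. It was the strongest peak of the window in replicate 3, at rank 1655 of 30000, and only ranked 13504 in replicate 2. The non-coding RNA gene CR44133 starts close to the same place. A further pooled summit, at -1399 bp from the first srp start, had 67.4 in replicate 2, 68.6 in replicate 3 and 133.8 in the pooled list. Unlike the promoter peak, it had nearly equal replicate signals, but at rank 5758 in replicate 2 and 10341 in replicate 3. The replicate summits lay at -1504 bp and -1362 bp from that start. The pooled signal of this peak was under 164.6, the lowest in the reproducible list. The second start site had a replicate 3 peak of 119.4 with its summit 893 bp downstream and no replicate 2 summit within 1000 bp. Near the fourth start site both replicates had a summit, at 53.5 in replicate 2 and 60.6 in replicate 3, within a coding exon of srp. The 16 pooled signals of the srp window ranged from 52.4 to 283.2, with a median of 99.5.

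Between srp and GATAe 2 reproducible peaks lay 753 bp apart by summit, both inside the non-coding RNA gene CR42839 (3R from 16004321 to 16008073, minus strand). The peak from 16005155 to 16005530, in an exon of CR42839, had a signal of 93.8 in replicate 2, 129.0 in replicate 3 and 215.2 in the reproducible list. It was the strongest peak of the srp and GATAe windows in replicate 2. The peak from 16005908 to 16006283, in an intron, had 36.1 in replicate 2, 210.8 in replicate 3 and 240.9 in the reproducible list. The neighbours thus ranked differently: the exonic peak stood at 4021 in replicate 2 and 4387 in replicate 3, and the intronic peak at 12206 and 2067. The summits were 3762 bp and 3009 bp upstream of the first GATAe start site.

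GATAe itself (FBgn0038391, 3R from 16009105 to 16019133) had no reproducible summit in its span, nor one within 1000 bp of either of its 2 start sites. At the first start site the strongest signals were 23.2 in replicate 2, 50.4 in replicate 3 and 53.1 in the pooled list, with the replicate 2 summit 924 bp away and thus at another peak. At the second they were 25.6, 66.6 and 94.3. Replicate 2 was low at both, and the pooled signals, at ranks 24455 and 11135 of 30000, were below the reproducible list. The GATAe window held 16 pooled peaks, with a median signal of 63.2 and the pnr promoter peak next after the CR42839 peaks. Replicate 2 had the exonic CR42839 peak, a peak of 53.5 in srp and a peak of 49.2 just beyond srp as its 3 strongest there. Replicate 3 had the intronic CR42839 peak, the pnr promoter at 154.8 and the exonic CR42839 peak.

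**Figure D1:**
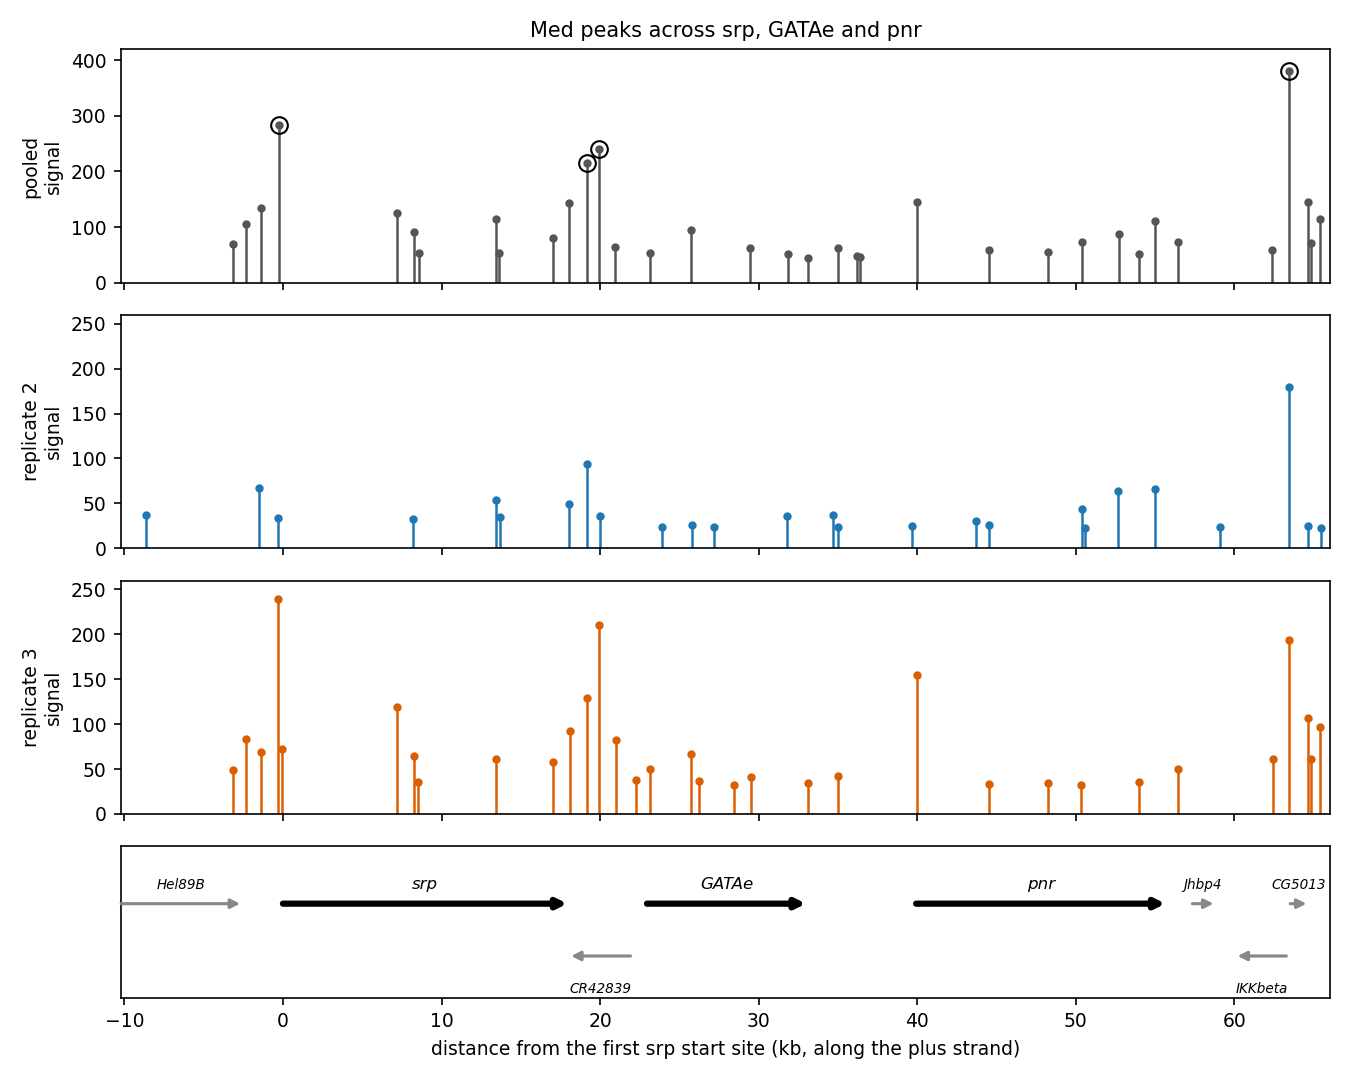
Signal (authors' value, y axis) of each Med summit against its distance in kb from the first srp start site, in the pooled list, replicate 2 and replicate 3, with genes as arrows and circles at reproducible peaks. The srp promoter, the intronic CR42839 summit and the pnr promoter stand out in replicate 3 and not in replicate 2, while the summit of 179.2 and 193.5 beyond pnr is high in both.

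pnr (FBgn0003117, 3R from 16026079 to 16041796) had no reproducible peak within the gene or at its start sites, and its promoter peak fell short of that list. The pooled peak from 16025932 to 16026307 had its summit 41 bp downstream of the first pnr start site, in the 5′ UTR. Its signal was 144.4, at rank 6788, where the reproducible list ended at 5867. Replicate 3 had 154.8 there, at rank 3359 of its list, and replicate 2 had 25.2, at rank 22792, with a summit at -255 bp from the start. The replicate 2 peak overlapped the pooled peak by 82 bp. Toward the 3′ end of pnr the replicates also differed. Replicate 2 had a peak of 66.4 in the 3′ UTR, 15031 bp from the first start site, and one of 63.4 in a coding exon at 12756 bp. Replicate 3 had no overlapping peak at the corresponding pooled peaks of 111.1 and 87.6. At a weaker pooled peak between them, of 50.7 in a coding exon, replicate 3 had 35.1 and replicate 2 had no peak. At the start site furthest downstream, 16034586, replicate 3 had 34.9 and replicate 2 had no summit within 1000 bp.

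The 1 reproducible peak of the pnr window lay at the promoters of neighbouring genes. It ran from 16049389 to 16049764, with its summit 93 bp upstream of CG5013 and 156 bp upstream of IKKbeta, which encodes a kinase of the immune deficiency pathway, and 23498 bp from the first pnr start site. Its signal was 179.2 in replicate 2, 193.5 in replicate 3 and 381.6 in the reproducible list, the highest of the 8 peaks. The summits of the replicates were 2 bp and 14 bp from that of the list. The pnr window held 18 pooled peaks, with signals from 45.1 to 381.6 and a median of 67.1. The peak next in strength, from 16050604 to 16050979, lay at the promoter of msps, which encodes a microtubule-associated protein, and reached into the end of CG5013. It had 24.4 in replicate 2, 106.5 in replicate 3 and 145.1 in the pooled list, where it stood just above the pnr promoter.

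grn (FBgn0001138, 3R from 8147368 to 8181444, minus strand) had a reproducible peak in an intron and another at its only start site. The intronic peak, from 8171442 to 8171817, lay 9814 bp into the gene in an intron of 11237 bp. It had 131.8 in replicate 2, 138.5 in replicate 3 and 256.4 in the reproducible list, and it was the strongest of the window in replicate 2. The promoter peak of grn spanned 8181327 to 8181702 and had its summit 71 bp upstream of the start site, with 34.9 in replicate 2, 160.3 in replicate 3 and 181.7 in the reproducible list. It was the strongest of the window in replicate 3 and ranked 12956 of 30000 in replicate 2. The replicates therefore put different grn sites on top. A pooled peak in the same intron, 5016 bp from the start, had 56.3 in replicate 2 and 73.6 in replicate 3, and a peak at -8152 bp had 61.1 and 46.1. In replicate 3 a coding exon peak 1947 bp into grn had 78.6. In replicate 3 alone, 3 summits with signals of 75.7, 39.1 and 41.2 lay among tRNA genes beyond the 3′ end of grn.

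GATAd (FBgn0032223, 2L from 10333734 to 10339185) had its reproducible peak in its first intron, and replicate 2 had no peak there or anywhere in the gene. The peak ran from 10334882 to 10335257, with its summit 1156 bp downstream of the nearer of 2 start sites. Its signal was 205.3 in replicate 3 and 278.9 in the reproducible list. At the start sites the strongest pooled peak had 104.6, with 61.7 in replicate 3. A different peak, in a coding exon 491 bp downstream of the second start site, was the strongest there in replicate 3, at 77.9, and replicate 2 had no summit within 1000 bp. The other reproducible peak of the window, from 10339332 to 10339707, had its summit 63 bp into SamDC, the gene of a polyamine synthesis enzyme just downstream of GATAd. It had 24.1 in replicate 2, 174.6 in replicate 3 and 242.8 in the reproducible list. Replicate 2 held 4 peaks in the whole window and replicate 3 held 11. The replicate 2 signals ran between 21.4 and 27.9, all below the median of that list, the highest in a coding exon of CG34367, against 34.4 up to 205.3 in replicate 3. A pooled peak of 137.1 in the 5′ UTR of Sps2, which encodes a selenophosphate synthetase, had 25.2 in replicate 2 and 106.2 in replicate 3.

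**Figure D2:**
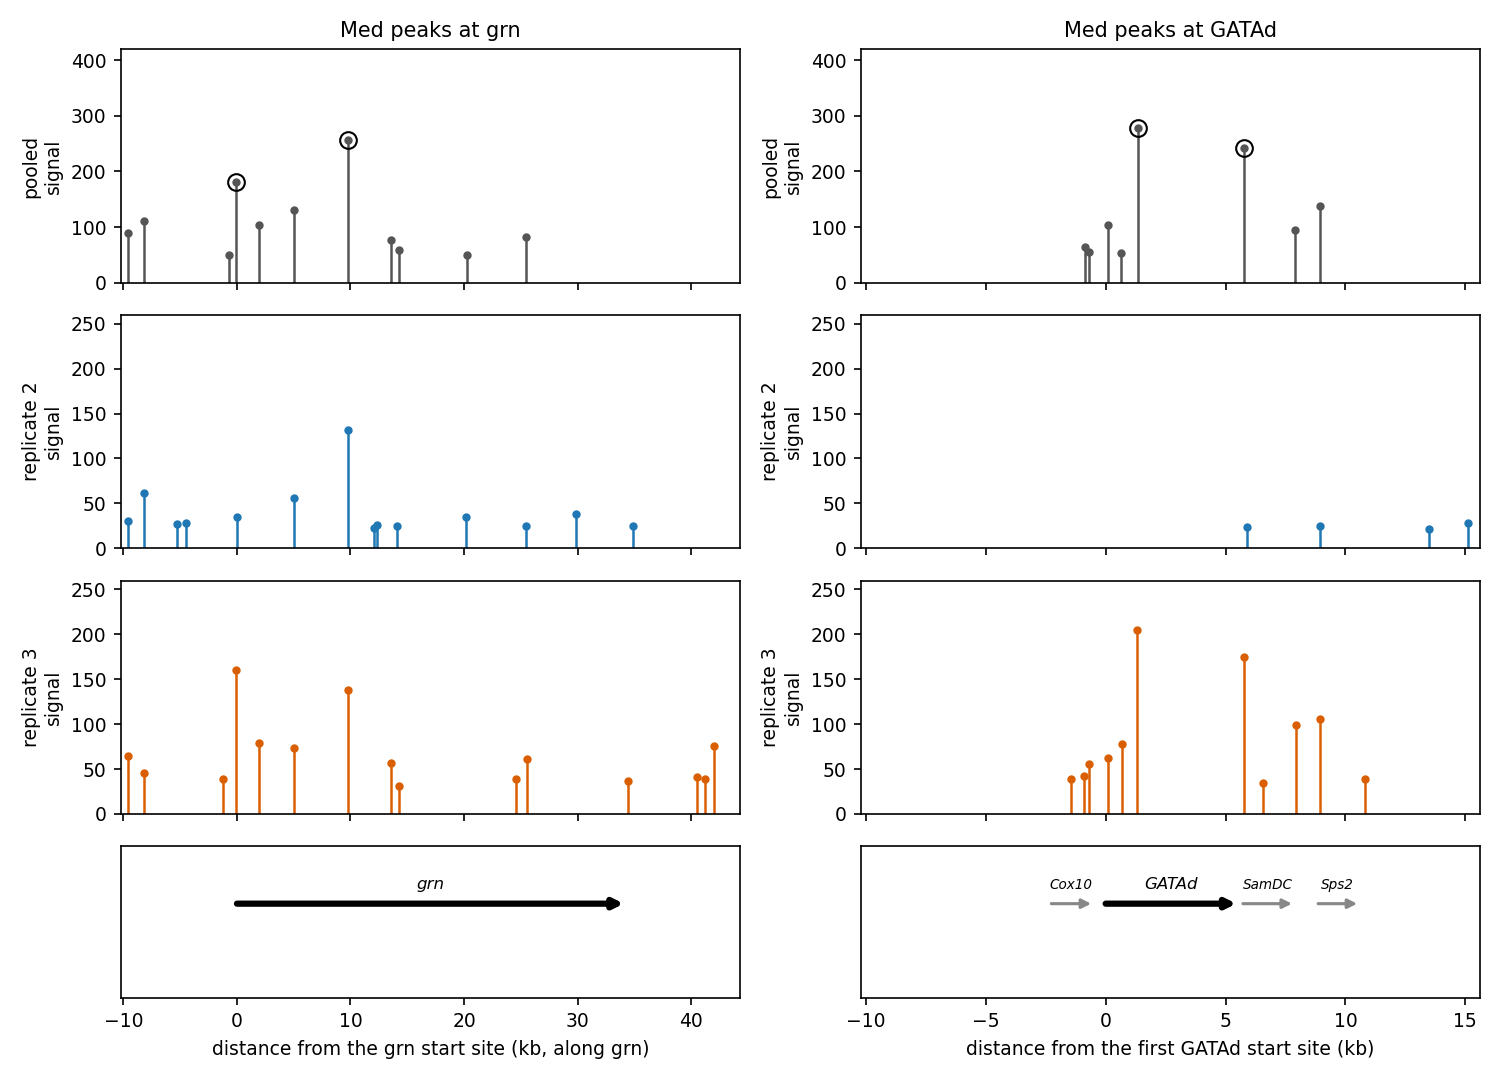
Signal (authors' value, y axis) of each Med summit against the distance in kb from the first start site of grn (left) and GATAd (right), in the pooled list, replicate 2 and replicate 3, with circles at reproducible peaks. The grn intron has 131.8 and 138.5 in the replicates, whereas the GATAd intron has 205.3 in replicate 3 and no peak in replicate 2.

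Counts over the GATA genes were set beside those over all protein-coding genes. A reproducible summit in the gene or within 10 kb was found for 5 of 5 GATA genes, against the 71.0% of all genes given above. The GATA windows, of 25452 bp to 54077 bp, were longer than the median window of 22166 bp, and GATAe had its summits only through the stretch it shares with srp. Inside the gene span 2 of 5 had one, grn and GATAd, against 14.8% of all genes. The GATA genes are 5452 bp to 34077 bp long, and gene length was not matched in this comparison. Within 1000 bp of a start site 2 of 5 had one, srp and grn, against 31.3%. The strongest reproducible signal of the windows ranged from 240.9 at GATAe to 381.6 at pnr, and the median over the 9897 windows with a summit was 443.7. Each of the 5 values was thus below that median. Over all 13945 genes, with those lacking a summit counted as lower, 40.2% fell below the GATAe value and 58.7% below the pnr value. Per 10 kb of window, the pooled list held from 2.03 summits at grn to 5.33 at GATAe, with a median of 3.24 over all genes.

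The counts of GATA promoters differed between the replicates, but 5 genes are too few to tell them from the shares of all genes. Among the 5867 strongest peaks of replicate 3, summits within 1000 bp of a start site were found for srp, grn and pnr, 3 of 5 genes against 31.8% of all genes. Among as many of replicate 2, 0 of 5 genes had one, against 29.7%. In the full relaxed lists it was 5 of 5 in replicate 3, against 63.2%, and 4 of 5 in replicate 2, against 60.7%, with GATAd the exception. The relaxed replicate 2 list thus held promoter summits for 4 genes, near the share of all genes, and none among its 5867 strongest peaks. Per start site, their strongest signals ran from 23.2 at GATAe to 53.5 at srp, in a list whose lowest signal was 21.4. At all start sites where both had a summit, replicate 3 had the higher signal, and the median of its whole list was also higher.

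**Figure D3:**
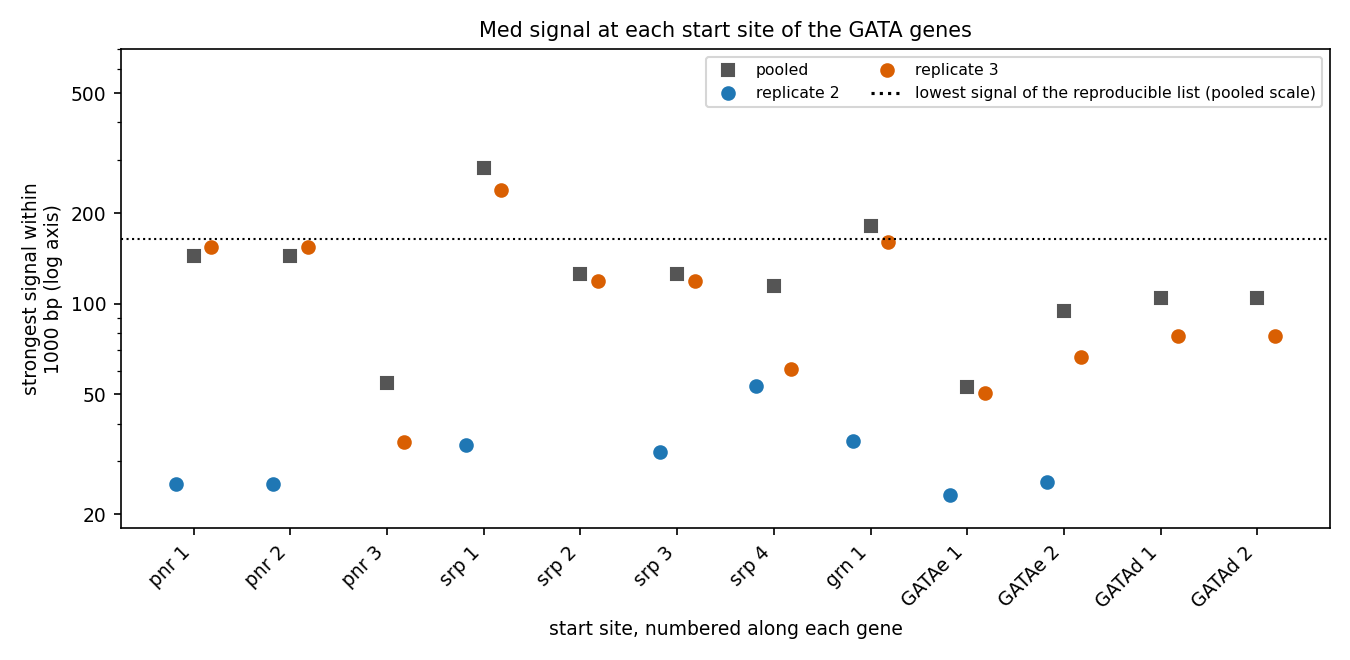
Strongest signal (log axis, authors' value) of a summit within 1000 bp of each of the 12 start sites of the 5 GATA genes, numbered along each gene, in the pooled list and in each replicate, with the lowest signal of the reproducible list as a dotted line on the pooled scale; a missing point means no summit. The pooled values pass the line only at the first srp start site (283.2) and at grn (181.7).

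Of the 8 reproducible peaks, 7 overlapped a relaxed peak of both replicates, 87.5% (Wilson 95% interval 52.9 to 97.8), against 94.6% of all 5867. The GATAd intron was the exception, found in replicate 3 alone, as were 232 of all 5867 peaks. The 7 peaks formed 2 sets. The grn intron, the exonic CR42839 site and the IKKbeta and CG5013 promoter had log2 ratios of replicate 3 to replicate 2 signal of 0.07, 0.46 and 0.11. The promoters of grn, srp and SamDC and the intronic CR42839 site had 2.20, 2.82, 2.86 and 2.54. In replicate 2 this set overlapped only peaks at ranks from 12206 to 24580 of 30000. With only the 5867 strongest peaks of each replicate counted, 37.5% of the 8 overlapped both. The median over the 7 was 2.20, against 0.33 over 5553 reproducible peaks found in both replicates and 0.40 over the 3072 with a signal in the range of the 8. It was 1.48 after each signal was divided by the median of its list, which lowers every ratio by the same amount. It was 1.33 when summits had to lie within 100 bp, which leaves out SamDC, whose replicate 2 summit was 105 bp away. The pooled signal was close to the sum of the replicate signals, at a median of 0.976 of the sum over the 7 and 1.00 over the 5553. These medians cover only peaks found in both replicates. The GATAd intron, with no replicate 2 peak, had 278.9 in the reproducible list and 205.3 in replicate 3. The list was selected by irreproducible discovery rate, so the overlap share is not independent of that selection. Whether selection into the list shapes the ratios was not tested.

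GC content moved with the ratio across all peaks. Reproducible peaks with at least 50% GC within 100 bp of the summit had a median log2 ratio of 1.31 (n = 453), and those under 50% had 0.29 (n = 5100). The srp promoter had 61.2% GC and the grn promoter 53.7%, against a median of 38.3%. SamDC, with the highest ratio of the 7, had 48.3% and so fell in the class under 50%. The exonic CR42839 site, with even replicates, had 50.7%, and the intronic site, with uneven ones, had 32.8%. The part of GC content in the replicate difference was not tested.

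**Figure D4:**
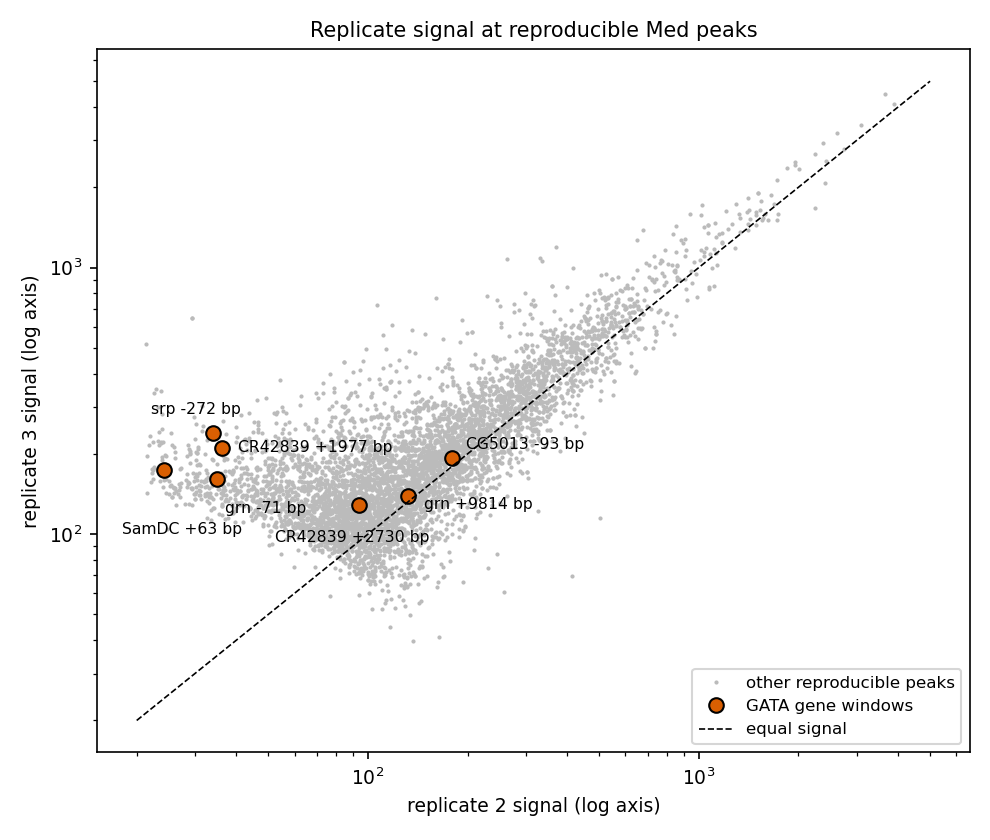
Signal in replicate 3 against replicate 2 (log axes, authors' values) at the 5553 reproducible peaks found in both, with the 7 peaks of the GATA windows in colour and labelled by the nearest start site and the distance of the summit from it. Of the 7, 3 lie near the line of equal signal and 4 lie at replicate 2 signals from 24.1 to 36.1 with replicate 3 signals from 160.3 to 239.6.

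Below the reproducible list the windows held 46 pooled peaks, of which 19 overlapped peaks of both replicates, 41.3% (Wilson 95% interval 28.3 to 55.7), against 43.5% of the 24133 such peaks in the genome. Replicate 3 alone supported 20 of the 46, replicate 2 alone 4, and neither 3. Over the 24133 these counts were 8218, 4003 and 1407. By window, the share of pooled peaks found in both replicates was 25% at GATAd (2 of 8), 44.4% at pnr (8 of 18), 50% at GATAe (8 of 16), 56.3% at srp (9 of 16) and 63.6% at grn (7 of 11). Windows of neighbouring genes share peaks. The Wilson intervals of all 5 overlap, from 7.15 to 59.1 at GATAd and from 35.4 to 84.8 at grn. No order of the genes can be read from these shares.

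GATA and Smad motifs were each found at 1 of the 8 reproducible summits. A GATA motif (TGATAA or AGATAA) was found in 1 of 8 windows, in the GATAd intron from 87 to 82 bp before the summit, against 25% of all 5867 windows. The Smad box GTCTG was found in 1, the exonic CR42839 site, 35 to 39 bp past the summit, against 20.1%. The GC-rich motif GCCGNC was found in 1, the srp promoter, 69 to 74 bp past the summit, against 16.9%. The Zelda motif CAGGTA was found in 1, the grn intron, against 4.26%. The GAGA factor motif GAGAG was found in 5 of 8, against 23.8%, at the promoters of srp, grn and SamDC, in the grn intron and in the exonic CR42839 site. The pnr promoter window held 3 GAGAG matches, of which the neighbouring pair on the minus strand overlap, and none of the other motifs. A match describes the letters of a window and shows no bound factor.

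Genes that work with the GATA factors were read in the same way, over 22 genes chosen from textbook knowledge, of which 18 had a reproducible summit within the gene or 10 kb of it and 8 had one within 1000 bp of a start site. Over all genes the shares were 71.0% and 31.3%, so most genes of any kind had a summit in the window. All 5 cofactor genes had one there, at a median strongest signal of 569.5, against 443.7 over all windows with a summit. Window lengths were not matched for the 22 genes, and the windows of ush and Bx were much longer than the median of 22166 bp. The strongest summits of Chi and Ssdp lay at the promoters of HSPC300 and MED17. ush, whose product binds Pannier and Serpent, had 19 summits in its long window, 15 of them in the gene. It also had the strongest signal, 6495 (3086 in replicate 2 and 3429 in replicate 3). That summit lay in an intron of ush, at -1405 bp from the nearest start site, which was that of cbt. fkh, a gut gene, followed with 724.8 at its promoter (148.3 and 561.4). dpp had 669.7 in its intron (307.9 and 355.6). tup, which encodes a LIM homeodomain protein of the dorsal ectoderm and heart, had 655.9 (345.4 and 313.9) at a site 130 bp upstream of CG10602. All 8 genes of dorsal ectoderm, amnioserosa and heart and all 4 blood genes had a summit in the window, against 71.0% of all genes, 1 of 3 gut genes did, and neither of the proneural genes ac and sc did. Several of these strongest summits lay at promoters of other genes, at bcd for zen, at smg for Doc3, at brwl for gcm and at BEAF-32 for kn. The median strongest signal over the 18 genes was 501.0, and that of each GATA window was lower.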

How the data were processed

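Chromatin immunoprecipitation with sequencing gave peak lists in narrowPeak format for 2 replicates, per the file headers of the deposited manifests, which also list a control file shared by both replicates. No source used here names the aligner, the peak caller or the selection threshold. The authors' signal value (column 7) was used as deposited. The deposited −log10 q value was not used, nor were the dm3 lists. Read depth is unknown, so Wilson intervals cover counting error over peaks only. The reproducible list was identical to the 5867 strongest pooled peaks.

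Genes and start sites came from Ensembl release 115 (BDGP 6.54) and bases from the Release 6 assembly, both on dm6. Positions count from 1. A peak belonged to a gene when its summit lay in the gene span plus 10 kb, and its replicate signal was that of the strongest relaxed peak with at least 1 bp of overlap. Transposable elements were left out of nearest start sites. There is 1 group and no contrast, so no test was run, and counts are set beside those over all protein-coding genes or all reproducible peaks. Genes and lists were chosen with earlier results of these data known. Every reproducible peak of a window, the genes nearest to it, the 3 strongest peaks per window in each relaxed list, and the 4 strongest partner genes were named. The ratio limits, the GC classes and 2 of the printed sites were chosen after values were seen. Peak matching was tested on simulated data. Python 3.11.15, pandas 2.3.3, numpy 2.4.6, scipy 1.17.1 and matplotlib 3.10.9 were used.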

Additional observations from a re-analysis of the deposited data

How the results depend on the processing

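Over 6 results and their alternatives, 20 values stayed within the margin set for their kind, 9 moved past it and 0 reversed. The margin was 1.5 times for a count, the Wilson interval for a share and 1 SD over the 7 peaks for the median log2 ratio, which is wide. Within it, the ratio fell from 2.20 to 1.48 with signals divided by list medians and to 1.33 with summits within 100 bp, and the GATA motif share rose from 12.5% to 25% with a motif of 5 letters, against 39.4% of all reproducible peaks. The 8 reproducible peaks became 2 with the gene span alone, 2 in the part of the reproducible list above its median signal, and from 5 to 12 with 1 replicate left out (5 without replicate 3, 12 without replicate 2). The 5 genes with a summit in the window became 2 with the gene span alone and 2 in the stronger part of the list, and 4 to 5 with 1 replicate left out. The 2 genes with a promoter summit became 1 in the stronger part of the list, and 0 without replicate 3 against 3 without replicate 2. The share of peaks found in both replicates fell from 87.5% to 37.5% when only the strongest replicate peaks counted. The share with a GATA motif was 0% within 50 bp of the summit, against 14.0% of all reproducible peaks. No paired analysis was possible because there is 1 group. Peak lists without read counts limit how well weak sites can be told from background.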

Other observations

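Some values were picked out after they were seen. A log2 ratio of replicate 3 to replicate 2 signal of 2 or more was found at 4 of the 7 GATA window peaks with both replicates, the promoters of srp, grn and SamDC and the intronic CR42839 site. The share was 4.92% over reproducible peaks found in both replicates (273 of 5553) and 6.67% over those with a signal in the range of the 8 (205 of 3072). At the pnr promoter, outside the reproducible list, the replicate signals of 154.8 and 25.2 also lay far apart. The cause was not tested.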
